A study of Homo sapiens with 22 samples.

Results

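MALAT1, NEAT1, KCNQ1OT1, TUG1, NORAD and OIP5-AS1 are 6 long noncoding RNAs (lncRNAs) that were followed here through a chase of bromouridine-labelled RNA in human HEK293T cells. Each was found by its GENCODE gene symbol, and 1 transcript stood for each gene, the one with the highest mean read count over the libraries of 0 to 10 h. The 6 genes held 57 of the 227264 transcripts in the count tables. All 6 chosen transcripts, and 54 of the 57, were among the 79513 transcripts that reached a mean of at least 1 CPM (the count of a transcript scaled to the size of its library) and were tested.

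lncRNAs are long transcripts that are not translated into a known protein, and many act from the place in the cell where they accumulate. MALAT1 lies in nuclear speckles, bodies rich in splicing factors. The long form of NEAT1 is the scaffold of paraspeckles, and KCNQ1OT1 stays at its own imprinted locus, where it represses neighbouring genes. NORAD and OIP5-AS1 are found mainly in the cytoplasm. NORAD binds Pumilio proteins through many copies of their recognition element, and OIP5-AS1 (also called Cyrano) carries a conserved, extensively paired site for the microRNA miR-7. TUG1 is found on both sides of the nuclear envelope.

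The cells expressed either a control shRNA (shControl) or an shRNA that targets the mRNA of ZNF598 (shZNF598). ZNF598 ubiquitinates small-subunit proteins of ribosomes that have collided. HEK293T is an embryonic kidney cell line. The cells of both arms were grown in 150 µM bromouridine for 24 h, moved to medium without it, and sampled at 0, 2, 4 and 6 h and then at 10 and 24 h. The labelled RNA was captured with an antibody and sequenced (BRIC-Seq). There were 2 libraries per shRNA at 0, 2, 4, 6 and 10 h and 1 at 24 h. The labels do not say whether 2 libraries of a group came from separate cultures, so p-values measure the spread between these libraries, which may be technical. Whether a line was 1 clone or a pool is not given in the sources used here. These are bulk measurements, in which fewer cells holding an RNA and less of it per cell cannot be told apart.

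Each library of 0 to 10 h held between 52352359 and 96963584 counts, and the 24 h libraries held 21220829 (the lowest of all) and 40157613. The knockdown was visible, since ZNF598 averaged 7.79 CPM ± 1.07 (SD, n = 2) in shControl and 0.922 ± 0.212 (SD, n = 2) in shZNF598 at 0 h, although at 24 h the 2 single libraries held 4.9 and 2.41 CPM. Transcripts typical of HEK293 cells such as VIM were counted 6722 to 15005 times per library, PAX2 only 1 to 6 times, and the blood and liver markers PTPRC, CD3E, HBB, ALB and APOA1 at most 3 times, with HBA1 at 2 to 27. The shControl libraries of 0 h stood apart from each other, with a chi-square of 20.667 per degree of freedom between them against 3.025 to 13.59 in the other groups. Counting error was small beside this, since the 6 lncRNAs had between 331 (OIP5-AS1) and 42130 (MALAT1) counts per library of 0 to 10 h, and as few as 199 (OIP5-AS1) at 24 h. Whether the reads were counted by strand is not given. The antisense neighbours were low where they had a transcript in the tables, with 72 to 458 counts for OIP5 and 2 to 15 for KCNQ1 per library.

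The 6 loci, in GRCh38 coordinates of GENCODE release 44, lie on 4 chromosomes. MALAT1 (ENST00000534336.1, chr11:65497640-65508073, plus strand, 1 exon) and NEAT1 (ENST00000501122.2, chr11:65422798-65445540, plus strand, 1 exon) are neighbours on chromosome 11. KCNQ1OT1 (ENST00000597346.1, chr11:2608328-2699994, minus strand, 1 exon) is the longest of the 6, at 91667 bases. TUG1 (ENST00000644773.1) has 3 exons at chr22:30969265-30979395 on the plus strand. NORAD (ENST00000565493.2) is 1 exon at chr20:36045618-36051018 on the minus strand, and OIP5-AS1 (ENST00000500949.6) has 4 exons at chr15:41283958-41306539 on the plus strand. For MALAT1, TUG1 and OIP5-AS1 the counts were made on another version of the transcript, of 8709, 7470 and 8829 bases in the tables against 10434, 7474 and 8881 in release 44.

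The sequence elements that these RNAs are known for were read from the release 44 transcripts on the transcribed strand. NORAD held 15 copies of the Pumilio element TGTANATA, or 2.777 per kilobase, which was at the 99.95 percentile of 13480 transcripts, 1 per gene. At least 1 copy was present in 29.34% of those transcripts and in 46.36% of the 2737 of similar length. Of the other 5 lncRNAs, KCNQ1OT1 held 9 copies, NEAT1 6, TUG1 2, OIP5-AS1 1 and MALAT1 0. None of them exceeded 0.268 per kilobase (TUG1). The 4 windows of 30 bases that follow are shown because the density of the element set NORAD apart from these 5. Capitals mark the copy of the element on which each window was placed. The window at chr20:36049501-36049530 also holds a further copy downstream of it, in lower case, which is 1 of the 15.
NORAD, chr20:36050182-36050211, minus strand: tggaaggcctgTGTATATAatatgaaaaag
NORAD, chr20:36049702-36049731, minus strand: aaatcacatttTGTAAATAcctttttgtta
NORAD, chr20:36049501-36049530, minus strand: ttacttatctgTGTATATAgtgtacataaa
NORAD, chr20:36047971-36048000, minus strand: caaccctactgTGTATATAgcggacaaact

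OIP5-AS1 held 3 matches to GTCTTCC, the complement of the miR-7 seed, which was present in 24.31% of all 13480 transcripts and in 48.07% of the 1142 of similar length. They are shown beside miR-7 because they differ in how far they match the microRNA past its seed. Upstream of the seed match, the middle window shared a run of 14 bases with the complement of miR-7, and the windows before and after it shared 5 and 3. The capitals mark the seed in miR-7 (RefSeq, GRCh38.p14) and its match in the transcript.
hsa-miR-7-5p: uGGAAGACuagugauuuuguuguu
OIP5-AS1, chr15:41298407-41298436, plus strand: gacttcagggtttaaaaaaaatGTCTTCCa
OIP5-AS1, chr15:41300570-41300599, plus strand: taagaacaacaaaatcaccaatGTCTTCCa
OIP5-AS1, chr15:41305850-41305879, plus strand: tgtcatatcctgaatatagtttGTCTTCCc

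Whether the 6 lncRNAs were abundant depended on the gene. Per kilobase of transcript, MALAT1 stood at 19.5 CPM and NORAD at 13.1 CPM in the shControl mean at 0 h, ranks 17 and 22 of the 557 lncRNA genes tested. TUG1 followed with 5.55 (rank 55), OIP5-AS1 with 2.95 (rank 128) and NEAT1 with 2.01 (rank 204). KCNQ1OT1 was at 0.264 CPM per kilobase and rank 536, so the word abundant did not describe it. Neighbours in this order were not all separable from library to library. At 0 h in shControl the MALAT1 libraries held 26.9 and 12.1 CPM per kilobase and the NORAD libraries 14.1 and 12.2. Likewise NEAT1 held 2.81 and 1.20 and OIP5-AS1 3.21 and 2.69, while TUG1, with 7.16 and 3.95, overlapped neither of its neighbours. After 10 h MALAT1 and NORAD were still the highest of the 6, with 43.1 and 12.7, and OIP5-AS1 (1.18) was then below NEAT1 (1.96).

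MALAT1, the speckle RNA, gained share during the chase in both arms. All of its levels that follow are CPM scaled by TMM, a factor that sets the bulk of each library equal. In shControl its libraries held 234 and 105 CPM at 0 h, 253 and 278 at 2 h, 400 and 339 at 4 h, 464 and 359 at 6 h, 380 and 370 at 10 h, and 140 at 24 h. In shZNF598 they held 167 and 195, 290 and 354, 442 and 356, 485 and 423, and 612 and 400 at the same times from 0 to 10 h, and 137 at 24 h. From 2 h on, both libraries of each group up to 10 h were above both 0 h libraries of their arm, and the 24 h libraries were back within or below the range of 0 h.

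Between 0 and 10 h MALAT1 rose 2.21-fold in shControl (log2 1.15, SE 0.23, adjusted p = 6.88e-05, edgeR quasi-likelihood test) and 2.79-fold in shZNF598 (log2 1.48, SE 0.23, adjusted p = 2.87e-06). Most of this was in place at 4 h, where it was 2.18-fold and 2.20-fold above 0 h (log2 1.13 and 1.14, adjusted p = 0.000321 and 0.000293). The size in shControl depended on its 0 h libraries, with a rise to 10 h of log2 1.84 without replicate 1 and 0.68 without replicate 2, and to 4 h of 1.82 and 0.66, all still called. With total counts in place of TMM the rise at 10 h was smaller, log2 0.47 in shControl (adjusted p = 0.0674) and 0.89 in shZNF598 (adjusted p = 0.00137), and that scaling moved the median change of all transcripts by log2 -0.67 and -0.60. A ratio taken within a library carries no scaling factor. The log2 ratio of MALAT1 to NORAD, both per kilobase, was 0.93 and -0.01 in shControl at 0 h, 2.10 and 1.79 at 6 h, 1.79 and 1.74 at 10 h and 0.93 at 24 h, and in shZNF598 it went from 0.43 and 0.56 through 1.95 and 1.97 at 6 h and 2.22 and 1.83 at 10 h to 0.84 at 24 h. In both arms MALAT1 thus gained on NORAD until 6 to 10 h, and at 24 h the ratio was in or near its 0 h range.

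The other 15 MALAT1 transcripts tested, which share reads with the chosen one, moved largely with it. In shControl 12 of them had a slope called higher and none a slope called lower, over a range of -0.085 to 0.16 log2 per hour. The 3 lowest, ENST00000620902.1, ENST00000544868.2 and ENST00000610481.1, were not called and had slopes of -0.085, -0.068 and -0.066. ENST00000620902.1 and ENST00000610481.1 are short transcripts near the 5′ end of the locus. ENST00000620902.1 averaged 2.41 CPM ± 1.42 at 0 h and 1.42 ± 0.234 at 10 h in shControl (SD, n = 2), and 1.74 ± 0.0764 and 2.97 ± 0.812 in shZNF598.

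NEAT1, the paraspeckle RNA, had no change from 0 h that was called at 2, 4, 6 or 10 h in either arm, with a wide spread between libraries. In shControl its libraries held 63.9 and 27.4 CPM at 0 h, 44.4 and 38.2 at 2 h, 76.9 and 52.3 at 4 h, 59.4 and 38.3 at 6 h, 50 and 39.3 at 10 h, and 18.2 at 24 h. In shZNF598 they held 42.8 and 45.1, 56.2 and 44.5, 68.8 and 45.0, 49.9 and 57.7, and 66.9 and 40.6 at 0, 2, 4, 6 and 10 h, and 18.6 at 24 h. In every group of 2 to 10 h at least 1 library lay within the range of the shControl libraries of 0 h, whereas both 24 h libraries were the lowest of their arms. The shZNF598 libraries of 0 h were closer together, and both of 6 h were above them. At 4 h NEAT1 was log2 0.50 above 0 h in shControl (SE 0.28, adjusted p = 0.148, edgeR) and 0.37 in shZNF598 (SE 0.28, adjusted p = 0.293). These changes were at the 95.15 and 91.74 percentile of lncRNA genes.

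The chosen NEAT1 transcript is the long form. The transcript of the short form (ENST00000499732.3, chr11:65422774-65426457) lies almost wholly inside its 5′ end, so reads there are counted for both and cannot be assigned to either form. This shared 5′ region held 6.3 to 10.4% of the counts of the long transcript from 0 to 10 h, and 12.5 and 17.3% at 24 h. Its count density, 84.2 per kilobase, was below that of the whole long transcript, 155 per kilobase, so these counts do not measure the short form. The long transcript less this region had a shControl slope of 0.0087 log2 per hour (SE 0.0428, 10 libraries) and a shZNF598 slope of 0.0213 (SE 0.0267), and the region itself 0.0201 (SE 0.0401) and 0.0189 (SE 0.0239). These are values of neighbouring stretches of the locus, and they do not compare the forms.

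**Figure D1:**
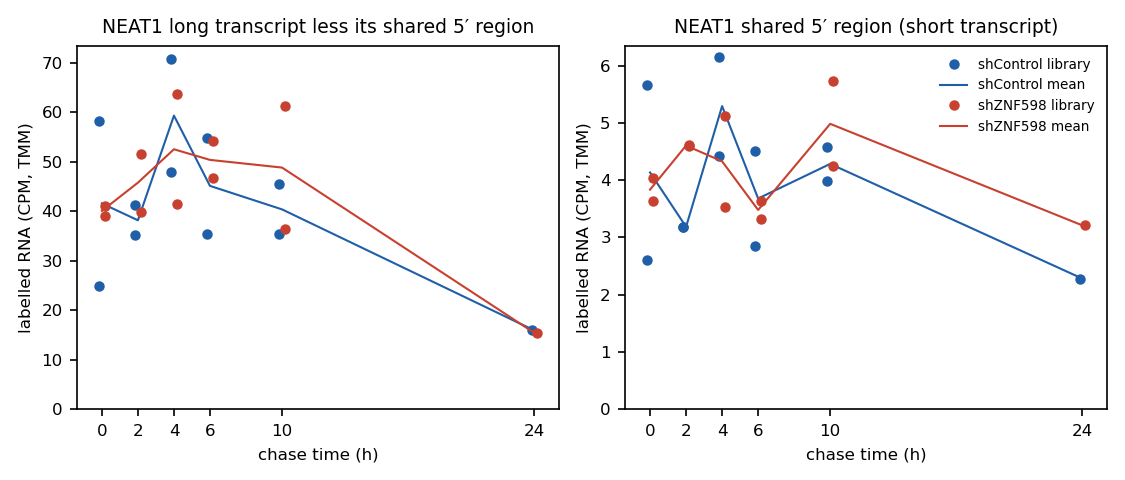
Level of NEAT1 by chase time (x axis, hours) in TMM-scaled CPM on a linear axis, with the counts of the long transcript less those of its shared 5′ region in 1 panel and those of the 5′ region, which reads of both forms fill, in the other. Points are libraries and lines join group means of shControl and shZNF598. The slopes of both stretches over 0 to 10 h are within 1 SE of 0.

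KCNQ1OT1, the imprinted antisense RNA of the KCNQ1 locus, fell at first and then recovered its share. In shControl its libraries held 29.9 and 18.4 CPM at 0 h, 14.3 and 13.7 at 2 h, 16.2 and 13.9 at 4 h, 16.8 and 12.4 at 6 h, 25.9 and 21.7 at 10 h, and 30.4 at 24 h. In shZNF598 they held 24.2 and 26.8, 16.5 and 14.1, 16.7 and 14.8, 17.3 and 16.5, and 27.5 and 25.1 at the times from 0 to 10 h, and 25.6 at 24 h. Every library of 2 to 6 h was below every library of 0 h and of 10 h in its arm.

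From 0 to 2 h KCNQ1OT1 fell to 0.579 of its 0 h level in shControl (log2 -0.79, SE 0.16, adjusted p = 0.00419) and to 0.599 in shZNF598 (log2 -0.74, adjusted p = 0.00712), and at 4 h it was at 0.622 and 0.619 (adjusted p = 0.00174 and 0.00163, all by edgeR). Without shControl replicate 1 of 0 h, the higher library, the 4 h change in shControl was log2 -0.29 and no longer called (adjusted p = 0.132). Over 2 to 10 h it had a slope of 0.092 log2 per hour with shControl (adjusted p = 0.000469) and 0.095 with shZNF598 (adjusted p = 0.000402), both called higher, so that a straight line over 0 to 10 h described this RNA poorly. Its log2 ratio to NORAD per kilobase traced the same dip, from -5.44 and -5.92 at 0 h to -6.52 and -6.47 at 2 h and back to -5.48 and -5.75 at 10 h in shControl, and from -5.75 and -5.70 through -6.28 and -6.51 to -5.65 and -5.56 in shZNF598. At 24 h the ratio was -4.66 and -4.98, its highest in either arm.

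TUG1, which occurs in both compartments, was the member whose level differed between the arms. In shControl its libraries held 53.5 and 29.5 CPM at 0 h, 40.2 and 44.2 at 2 h, 41.6 and 37.4 at 4 h, 39.7 and 31.2 at 6 h, 34.2 and 30.7 at 10 h, and 26.3 at 24 h. In shZNF598 they held 46.7 and 44.5, 44.1 and 50, 53.8 and 45.9, 49.4 and 42.3, and 46.2 and 39.7 at 0, 2, 4, 6 and 10 h, and 32.3 at 24 h. At 4, 6 and 10 h both shZNF598 libraries were above both shControl libraries, and at 0 and 2 h the arms overlapped.

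NORAD, the Pumilio-binding RNA, was the steadiest of the 6 over the times from 0 to 10 h. Its replicates were about as close to each other as those of OIP5-AS1. In shControl its libraries held 76.3 and 65.6 CPM at 0 h, 77.5 and 71.4 at 2 h, 62.8 and 76.1 at 4 h, 67.2 and 64.4 at 6 h, 68.0 and 68.9 at 10 h, and 45.3 at 24 h. In shZNF598 they held 76.9 and 81.8, 75.2 and 75.6, 77.3 and 74.8, 77.9 and 66.9, and 81.5 and 69.6 from 0 to 10 h, and 47.6 at 24 h. The lowest and highest libraries of 0 to 10 h were 62.8 and 77.5 CPM in shControl and 66.9 and 81.8 in shZNF598, and neither arm had a change from 0 h that was called at 2, 4, 6 or 10 h.

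OIP5-AS1, the cytoplasmic RNA with the miR-7 site, fell relative to the bulk of the labelled RNA. In shControl its libraries held 28.3 and 23.7 CPM at 0 h, 26.0 and 27.0 at 2 h, 18.2 and 20 at 4 h, 14.2 and 13.5 at 6 h, 10.2 and 10.6 at 10 h, and 11.3 at 24 h. In shZNF598 they held 24.7 and 25.5, 23.0 and 25, 19.7 and 18.9, 14.3 and 12.2, and 10.3 and 8.25 from 0 to 10 h, and 11.6 at 24 h. In each arm the libraries of 4, 6 and 10 h followed each other downward without overlap, and no further drop was seen at 24 h.

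At 4 h OIP5-AS1 was at 0.735 of its 0 h level in shControl (log2 -0.44, SE 0.12, adjusted p = 0.00325, edgeR) and at 0.770 in shZNF598 (log2 -0.38, adjusted p = 0.0112), and at 10 h at 0.400 (log2 -1.32, adjusted p = 4.2e-10) and 0.371 (log2 -1.43, adjusted p = 1.81e-10). The 4 h call was lost without shControl replicate 1 of 0 h (log2 -0.31, adjusted p = 0.0555), without shControl replicate 1 of 4 h (log2 -0.38, adjusted p = 0.0527), and, in shZNF598, without replicate 2 of 0 h (log2 -0.36, adjusted p = 0.0727) or of 4 h (log2 -0.36, adjusted p = 0.0669). In shZNF598 it was also lost without the filter on low counts (log2 -0.28, adjusted p = 0.0914). The 10 h call was kept whichever single library was left out. Against NORAD within a library, the log2 ratio per kilobase went from -2.14 and -2.18 at 0 h to -3.44 and -3.41 at 10 h in shControl and from -2.35 and -2.39 to -3.70 and -3.79 in shZNF598, and was -2.71 and -2.75 at 24 h.

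Over 0 to 10 h the fall of OIP5-AS1 belonged to the chosen transcript more than to the gene's other transcripts. At 4 h in shControl this was not so. There the other 8 changed by log2 -0.77 to -0.05, with a median of -0.49, against -0.44 for the chosen one. The lowest of them, ENST00000557993.5, was called at 4 h (log2 -0.77, adjusted p = 0.005, edgeR). The other 8 that were tested had slopes of -0.047 to 0.0097 log2 per hour with shControl and -0.076 to 0.0088 with shZNF598, and 1 of them, ENST00000558945.5, was called lower in both arms (-0.047, adjusted p = 0.0122, and -0.076, adjusted p = 0.000358). They averaged 74.4 to 329.5 counts per library against 1333.5 for the chosen one. Reads in shared exons are counted for several of these transcripts, so their values are not independent.

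**Figure D2:**
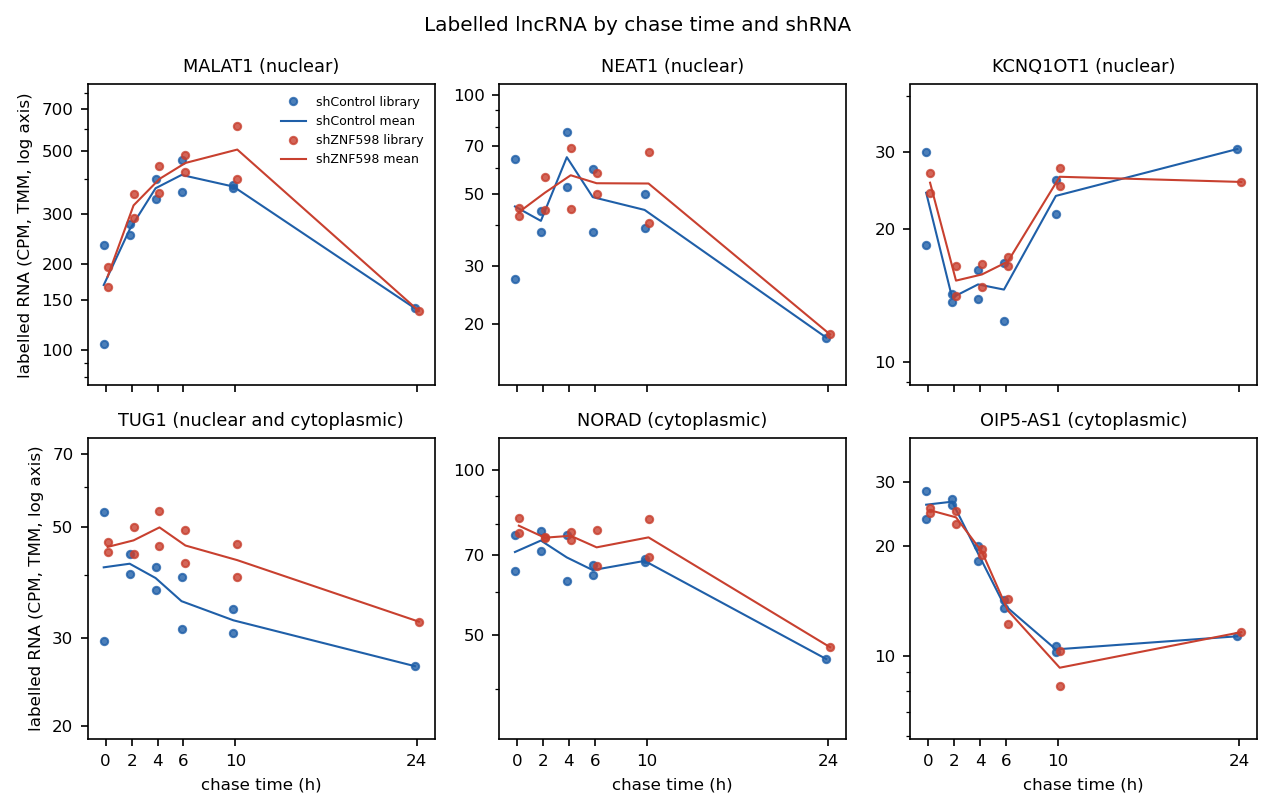
TMM-scaled CPM of each lncRNA on a log axis against chase time in hours, 1 panel per gene. Points are single libraries of shControl and shZNF598 and lines join the group means. MALAT1 climbs to between 359 and 485 CPM at 6 h, KCNQ1OT1 dips between 2 and 6 h, OIP5-AS1 falls to between 8.25 and 10.6 CPM at 10 h, and NORAD and NEAT1 have no slope that was called over 0 to 10 h.

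Changes from 0 h were called (adjusted p below 0.05) for 3 of the 6 lncRNAs at 4 h in each arm, where 41.5% of all transcripts were called in shControl and 40.0% in shZNF598. At 10 h 2 of 6 were called in each arm, where 78.0% and 74.8% of all transcripts were called. At 2 h KCNQ1OT1 was called in shControl (background 4.03%), and KCNQ1OT1 and MALAT1 (1.78-fold higher, adjusted p = 0.0312) in shZNF598 (background 4.67%). These contrasts were added after the data had been seen. For 0 of the 6 was a difference between the shRNAs called in the change from 0 to 4 h (background 0.0126%) or from 0 to 10 h (background 0.336%), and 0 had an unadjusted p under 0.05 there. The count at 10 h was not firm, since 4 of 6 were called in shControl when either of its 0 h libraries was left out, and 5 of 6 in each arm with total counts.

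The first question of the design was whether knockdown of ZNF598 altered the level of labelled lncRNA. TUG1 was higher in shZNF598 than in shControl, 1.22-fold on average over 0 to 10 h, and it was the only 1 of the 6 called. Its shControl libraries of 0 to 10 h ran from 29.5 to 53.5 CPM with a median of 38.6, and its shZNF598 libraries from 39.7 to 53.8 with a median of 46.0 (10 libraries each), so the ranges overlapped. The difference was log2 0.28 (SE 0.077, 95% interval 0.12 to 0.44, adjusted p = 0.0109, edgeR quasi-likelihood test). All 20 TUG1 transcripts, which share reads, were called higher, with differences of log2 0.24 to 0.32.

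That 1 of 6 (16.7%) compares with 22.4% of all transcripts called over 0 to 10 h, 12.3% of them higher, and with 19.6% of the lncRNA genes, so the count of members called was not above the background. MALAT1 stood at 349 CPM (median, 105 to 464) in shControl and 378 (167 to 612) in shZNF598, a difference of log2 0.21 (SE 0.10, adjusted p = 0.133). NORAD stood at 68.4 (62.8 to 77.5) and 76.3 (66.9 to 81.8), log2 0.12 (SE 0.049, adjusted p = 0.0858). KCNQ1OT1, with medians of 16.5 and 17.0 CPM, differed by log2 0.12 (adjusted p = 0.239), NEAT1 (47.2 and 47.5) by 0.091 (adjusted p = 0.640) and OIP5-AS1 (19.1 and 19.3) by -0.081 (adjusted p = 0.286). None of these 5 passed the threshold, although the unadjusted p by edgeR was under 0.05 for MALAT1 (0.045) and NORAD (0.0241). The median difference of the 6 was log2 0.1213, beside 0.0198 for all transcripts.

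These calls rested in part on 1 control library. Without shControl replicate 1 of 0 h, 4 of the 6 were called higher in shZNF598, TUG1 with MALAT1 (log2 0.35, adjusted p = 0.000367), KCNQ1OT1 (log2 0.20, adjusted p = 0.0106) and NORAD (log2 0.14, adjusted p = 0.0291). NORAD was also called without shControl replicate 2 of 4 h (log2 0.15), shZNF598 replicate 2 of 6 h (0.14) or shZNF598 replicate 2 of 10 h (0.14). TUG1 was called whichever single library was left out, with differences between log2 0.21 and 0.38.

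At single chase times 0 of the 6 differed between the shRNAs by the edgeR test, where 0.407, 0.746, 1.4, 2.29 and 3.23% of all transcripts were called at 0, 2, 4, 6 and 10 h. TUG1 was the only member with an unadjusted p under 0.05, at 6 h (0.0437) and 10 h (0.0292). Its difference was log2 0.14 at 0 h, 0.16 at 2 h, 0.34 at 4 h, 0.37 at 6 h and 0.41 at 10 h. Both shZNF598 libraries lay above both shControl libraries at 3 of the 5 times for TUG1, at 2 for MALAT1 (2 and 10 h) and NORAD (0 and 10 h), at 1 for NEAT1 (2 h) and at none for KCNQ1OT1, and both lay below for OIP5-AS1 at 2 h. Among all transcripts, taking each time by itself, 21.85 to 26.32% were separated upward and 15.11 to 24.14% downward. Upward separation at 4 or more times was found for 7.308%, and the share at 3 or more was not counted.

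**Figure D3:**
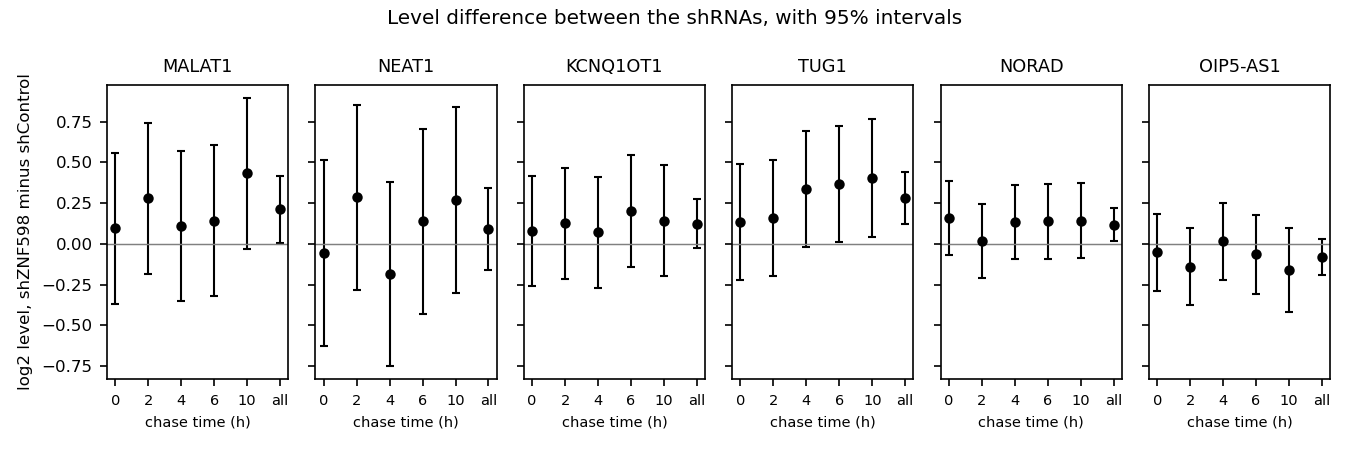
Difference in level, log2 of shZNF598 over shControl, for each lncRNA at each chase time and as the mean over 0 to 10 h ("all"), with 95% intervals from edgeR. The line at 0 is no difference. The interval of the mean excludes 0 for TUG1 (log2 0.28, 0.12 to 0.44), MALAT1 (0.21, 0.0051 to 0.42) and NORAD (0.12, 0.017 to 0.22). Only TUG1 also has an adjusted p below 0.05.

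The shControl libraries of 0 h disagreed on these RNAs. Replicate 2 was below replicate 1 for all 6, by log2 -1.22 for NEAT1, -1.15 for MALAT1, -0.86 for TUG1, -0.70 for KCNQ1OT1, -0.25 for OIP5-AS1 and -0.22 for NORAD. It was also below for all 6 in shControl at 6 h and in shZNF598 at 4 and 10 h, by at most log2 -0.72 (NEAT1, 10 h). In shZNF598 at 10 h KCNQ1OT1 differed 1.10-fold, less than NORAD (1.17-fold) and OIP5-AS1 (1.24-fold). In shControl at 0 h the 3 RNAs known as nuclear and TUG1 differed 1.63- to 2.34-fold between the 2 libraries, and the 2 known as cytoplasmic 1.16- to 1.19-fold. Which of the 2 libraries was kept set the sign at 0 h: without replicate 1 the difference of MALAT1 was log2 0.79 (adjusted p = 0.0379) and that of TUG1 0.63 (adjusted p = 0.0371), and without replicate 2 they were -0.37 and -0.23.

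**Figure D4:**
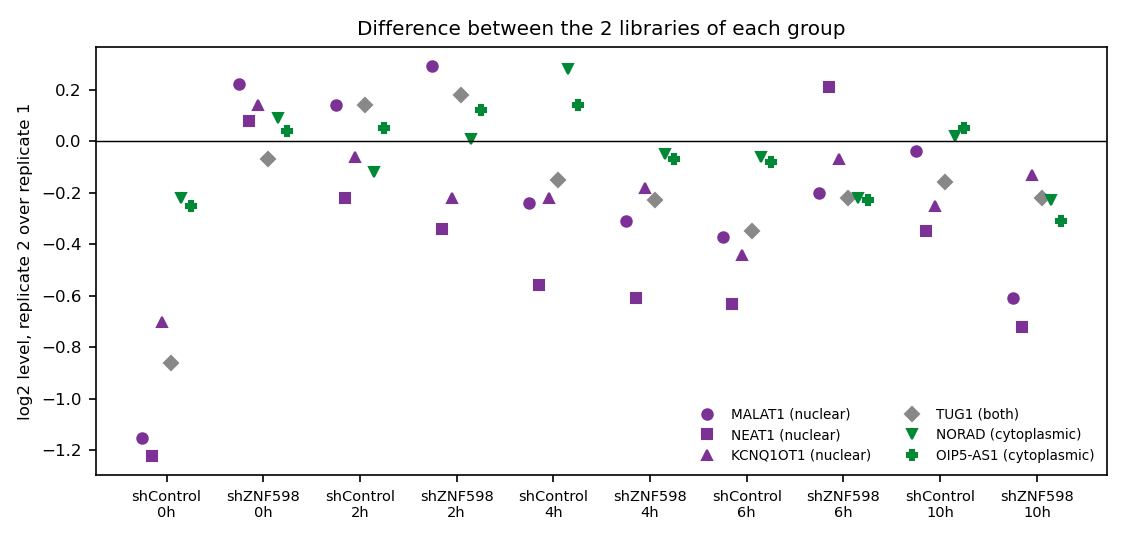
Log2 ratio of replicate 2 to replicate 1 (TMM-scaled CPM) in each of the 10 groups with 2 libraries, for the 6 lncRNAs. In shControl at 0 h all 6 are below 0, from -0.22 for NORAD to -1.22 for NEAT1. All 6 are also below 0, by less, in shControl at 6 h and in shZNF598 at 4 and 10 h, where the lowest is -0.72 (NEAT1, 10 h).

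The second question was how fast each RNA left the labelled pool, taken as the slope of its log2 level on hours over 0 to 10 h. Under TMM a slope of 0 means decay at the pace of the bulk of the library, not stability. MALAT1 rose relative to the bulk by 0.109 log2 per hour in shControl (SE 0.0347, adjusted p = 0.00755, edgeR) and 0.132 in shZNF598 (SE 0.0338, adjusted p = 0.0016). OIP5-AS1 fell by 0.149 log2 per hour in shControl (SE 0.0153, adjusted p = 3.14e-08) and 0.156 in shZNF598 (SE 0.0155, adjusted p = 2.93e-08). TUG1 fell by 0.040 in shControl (SE 0.0173, adjusted p = 0.0414) and had a slope of -0.011 in shZNF598 (adjusted p = 0.594). NORAD had slopes of -0.0105 and -0.0068 (adjusted p = 0.375 and 0.57), NEAT1 0.0013 and 0.0249 (adjusted p = 0.972 and 0.493) and KCNQ1OT1 0.0116 and 0.019 (adjusted p = 0.747 and 0.602), none of them called.

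Slopes were thus called for 3 of 6 in shControl, where 74.4% of all transcripts and 56.2% of the lncRNA genes were called, and for 2 of 6 in shZNF598, where 71.2% and 54.4% were. Among the 557 lncRNA genes MALAT1 was at the 90.66 percentile of slopes in shControl and at 93.0 in shZNF598, OIP5-AS1 at 9.52 and 7.0, and the other 4 between 38.06 and 61.22. Slopes moved with the scaling. Total counts moved the median slope of all transcripts by -0.0698 log2 per hour with shControl and -0.0627 with shZNF598, after which MALAT1 had slopes of 0.0384 and 0.0683, no longer called, and NEAT1, KCNQ1OT1, TUG1 and NORAD were below 0 in both arms. The call of TUG1 in shControl was weak as well. It was lost without shControl replicate 1 of 0 h (-0.021), either shControl replicate of 2 h (-0.041 and -0.037), replicate 2 of 6 h (-0.037), either replicate of 10 h (-0.046 and -0.034) or shZNF598 replicate 2 of 4 h (-0.0397), and 14 of the 20 TUG1 transcripts were called lower in shControl and 0 in shZNF598.

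Set side by side, the RNAs known as nuclear and as cytoplasmic did not overlap in slope in either arm, with 3 and 2 genes. MALAT1, NEAT1 and KCNQ1OT1 had slopes of 0.0013 to 0.109 log2 per hour with shControl and 0.019 to 0.132 with shZNF598, and NORAD and OIP5-AS1 slopes of -0.149 to -0.0105 and -0.156 to -0.0068. TUG1, at -0.040 and -0.011, lay between OIP5-AS1 and NORAD in both arms. With so few genes this is a description, and it holds for 0 to 10 h with all libraries. Over 0 to 4 h KCNQ1OT1 (-0.1828 and -0.1749) and over 0 to 24 h NEAT1 (-0.0533 and -0.0478) were below NORAD (-0.0182 and -0.0166, and -0.0262 and -0.0271), as was KCNQ1OT1 over 0 to 6 h (-0.1087 and -0.0908). In shControl NEAT1 was below NORAD without replicate 2 of 0 h (-0.0303), and KCNQ1OT1 without replicate 1 of 10 h (-0.021). NEAT1 (0.0013, SE 0.0325) and NORAD (-0.0105, SE 0.0105), the neighbours across the divide in shControl, were not separated by their errors. At 24 h, with 1 library per arm, KCNQ1OT1 (30.4 and 25.6 CPM) and MALAT1 (140 and 137 CPM) were near their 0 h levels, and NEAT1 (18.2 and 18.6 CPM) was below its own.

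**Figure D5:**
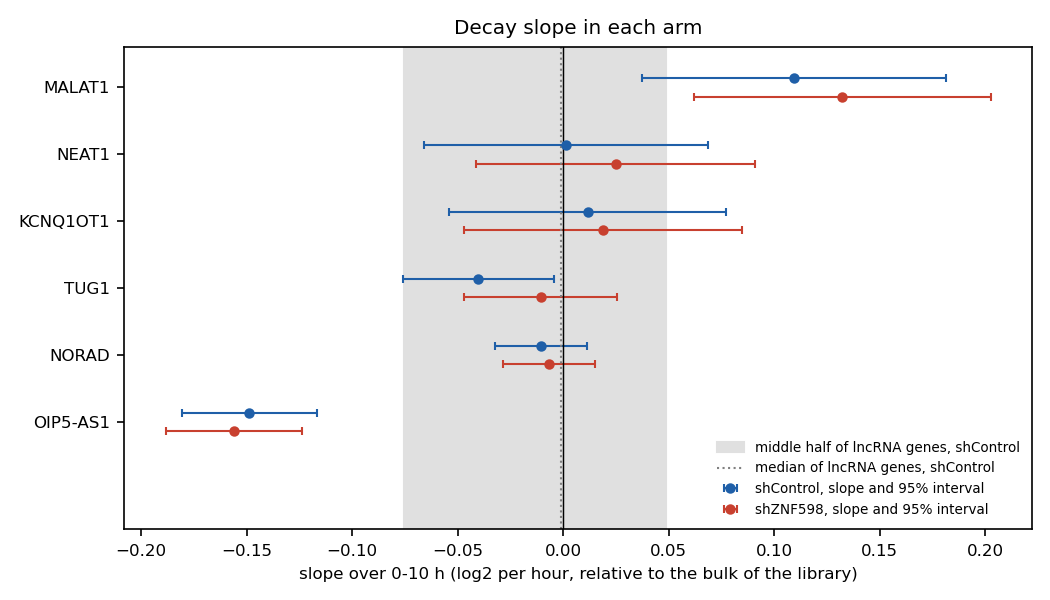
Slope over 0 to 10 h (log2 per hour, relative to the bulk of the library) of each lncRNA in shControl and shZNF598 with 95% intervals. The grey band is the middle 50% of 557 lncRNA genes in shControl, from -0.0755 to 0.0487. MALAT1 lies above the band and OIP5-AS1 below it in both arms, and the arms' intervals overlap for all 6.

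For none of the 6 was a difference in slope between the shRNAs detected (0 of 6, and 0 at an unadjusted p under 0.05, by edgeR, where 0.116% of all transcripts were called). The intervals give what the data allowed, in log2 per hour. NORAD had the tightest, 0.0036 with a 95% interval of -0.027 to 0.035, followed by OIP5-AS1 with -0.0073 (-0.052 to 0.037) and TUG1 with 0.0295 (-0.021 to 0.080). Those of MALAT1 (0.023, -0.079 to 0.125), NEAT1 (0.0235, -0.071 to 0.118) and KCNQ1OT1 (0.0074, -0.086 to 0.101) were wider. In simulated libraries of this design, with a dispersion of 0.02, 20.5% of transcripts with a slope difference of 0.15 log2 per hour were called. Most differences of that size were thus missed among the simulated transcripts. That rate was not worked out for these 6 genes, whose spread differs. Their 95% intervals all leave out a difference of 0.15 log2 per hour in either direction, and smaller differences remain possible.

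An apparent half-life, by the study's rule of a line through log2 fold changes with R2 above 0.9 and a half-life between 0 and 24 h but without its spike-in factor, was obtained for OIP5-AS1 alone. It was 7.47 h in shControl (R2 0.928) and 6.93 h in shZNF598 (R2 0.95), both over the 0 to 10 h window, beside medians of 4.131 and 4.262 h over the 3777 genes with a reliable value in both arms. The other 5 gave no such value in either arm, TUG1 in shControl because its line (R2 0.959 over 0 to 24 h) gave 42.0 h, past the upper bound. These half-lives have no error of their own, are relative to the bulk of the library, and were not tested. The medians cover only genes that fell evenly enough to pass the rule, each over its own best window. They are thus not those of a typical gene. By slope over 0 to 10 h OIP5-AS1 fell faster than most, at the 16.7 percentile of all genes in shControl and 12.87 in shZNF598.

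For each lncRNA the 3 genes with the most similar course were found by Pearson's r of log2 CPM over the 10 group means of 0 to 10 h, a description over points that share libraries and scaling. For MALAT1 they included ANKRD36 (0.9881) and ANKRD36C (0.9818). For KCNQ1OT1 they were PSMG4 (0.9881), ENSG00000290993 (0.9822) and FAM88E (0.9737), and for TUG1 PDPR (0.9835), B3GALNT2 (0.9785) and AGO1 (0.9751). NORAD was closest to KIF13A (0.9443), PDPR2P (0.9366) and MIGA1 (0.9328), and OIP5-AS1 to the unnamed ENST00000638794.1 (0.9971), SAMD12 (0.9966) and SGTB (0.9964). NEAT1 had the loosest matches, DCLK2 (0.8978), GLE1 (0.8806) and NMNAT2 (0.8503).

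Transcripts that encode the known protein partners of these RNAs differed between the shRNAs in part of the cases, in level over 0 to 10 h and by the same edgeR test, in which 22.4% of all transcripts and 26.1% of all genes were called. Of 18 paraspeckle proteins 3 were called, the NEAT1-binding PSPC1 (log2 -0.44, adjusted p = 4.95e-08) and NONO (-0.21, adjusted p = 0.00105) lower and the cleavage factor subunit NUDT21 (0.14, adjusted p = 0.0364) higher. PSPC1 averaged 27.7 CPM in shControl and 20.4 in shZNF598. Of 12 speckle and MALAT1-processing proteins 4 were called, the speckle scaffold SRRM2 lower (-0.72, adjusted p = 0.00051, 50.6 against 30.8 CPM) and the splicing proteins RNPS1 (0.15, adjusted p = 0.0199) and PNN (0.31, adjusted p = 0.000471) and the RNase P subunit RPP30 (0.17, adjusted p = 0.0439) higher.

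Among 8 NORAD partners, PUM2 was called higher in shZNF598, by log2 0.21 (adjusted p = 0.0347), and the export factor ALYREF lower (-0.15, adjusted p = 0.0274). Of 6 OIP5-AS1 partners the Argonaute genes AGO1 (0.39, adjusted p = 2.05e-05) and AGO2 (0.39, adjusted p = 0.000273) were called, both higher. Of 7 chromatin partners of KCNQ1OT1 and TUG1, the histone chaperone RBBP4 was lower (-0.16, adjusted p = 0.0272) and the insulator protein CTCF higher (0.17, adjusted p = 0.0207). Of the 15 neighbouring genes 9 were tested, and FRMD8, next to NEAT1, was lower (-0.18, adjusted p = 0.041), as was OIP5, which lies opposite OIP5-AS1 (-0.33, adjusted p = 0.000574).

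The median difference in level over 0 to 10 h was log2 -0.050 for the paraspeckle list, -0.034 for the speckle list, -0.016 for the NORAD partners, 0.14 for the OIP5-AS1 partners, -0.053 for the chromatin partners and -0.022 for the neighbours, beside 0.020 for all transcripts. The lists held no call in the difference in slope and none in the level at 0 h, and 0 to 2 members of each had an unadjusted p under 0.05 there. Within the arms, slopes were called for 12 of the 18 paraspeckle genes in each arm, 7 higher and 5 lower in shControl and 8 and 4 in shZNF598. In the speckle list slopes were called for 10 of 12 in shControl, 8 of them lower, and for 11 in shZNF598, 9 lower. The slope of MALAT1 was called higher. Among all 79513 transcripts 32468 were called lower in shControl and 30583 in shZNF598. Of 10961 protein-coding genes 8526 were called in shControl, 2804 of them higher, so most called slopes of such genes were lower. Of the NORAD partners 6 of 8 were called in each arm (4 lower), of the OIP5-AS1 partners 6 and 5 of 6 (5 and 4 lower), of the chromatin partners 7 and 6 of 7 (4 lower in each) and of the neighbours 7 and 8 of 9 (5 lower in each), where the background was 74.4% and 71.2% of all transcripts.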

How the data were processed

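The study trimmed reads with fastp, set aside those that aligned to noncoding RNAs (which ones is not given in the sources used here) and aligned the rest with STAR 2.7.0a to hg38 with GENCODE release 32, allowing 1 mismatch. The deposited values are raw read counts per transcript, made by the authors with featureCounts, in which a read can count for several isoforms. No column was left unused (0). The study's 3 spike-ins were not used here. Transcripts were named with GENCODE release 44.

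Transcripts whose CPM averaged 1 or more in the 20 libraries of 0 to 10 h were scaled by TMM and tested with edgeR 4.0.16 (R 4.3.3, quasi-likelihood, Benjamini-Hochberg over all 79513), with 1 mean per group for levels and a line per shRNA for slopes. The 24 h levels used TMM over all 22 libraries. Half-lives used DESeq2 1.42.0. Scripts were tested on simulated data. Named genes were the 6 lncRNAs, ZNF598, the 3 most similar genes (log2 of CPM + 0.5) and called genes of the lists. Some genes that this rule names are not reported here. Members and lists were chosen with earlier results of these data known. Alternatives were other scalings, filters, time windows, rows and DESeq2, and leaving out each library.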

Additional observations from a re-analysis of the deposited data

How the results depend on the processing

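The higher TUG1 level in shZNF598 over 0 to 10 h and the fall of OIP5-AS1 over 0 to 10 h in both arms kept their direction and call under every scaling, filter, tool and left-out library tried over those times. Without the filter the MALAT1 level over 0 to 10 h was called as well (log2 0.2235). At 0 h the 324 calls became 788 without the filter, 550 with DESeq2 and 11 from the 0 h libraries alone. The 92 calls of a slope difference became 37 with total counts, 46 without the filter, 10 with 1 transcript per gene, 519 with DESeq2, and 22, 0, 0 and 52 over 0-6, 0-4, 0-24 and 2-10 h. A linear trend of the group means, added after seeing the data, gave 586. In the design simulated on 79513 transcripts that trend recovered 87% of changes of 0.15 log2 per hour, against 20.5% for the line, but 17 of its 191 calls were false, against 0 of 41. The cause of these shifts was not tested.

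No paired structure common to all groups was found. The differences between replicates correlated between groups with r of -0.337 to 0.49 (median 0.035) over 45 pairs of groups. In 17 of these pairs r was above 0.1. Between the arms at the same chase time r ran from -0.238 to 0.367. Some groups thus shared a replicate difference, and its source was not tested. A replicate block changed no call of the 6 lncRNAs, gave TUG1 a level difference of log2 0.2863, turned that of NEAT1 at 0 h to 0.0342, and gave 398 calls at 0 h, 18602 over 0 to 10 h and 80 for the slope difference.

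Slope differences changed sign, all uncalled, for MALAT1 over 0-6 h (-0.0029), NEAT1 over 0-4 h (-0.0231), KCNQ1OT1 and NORAD over 0-24 h (-0.0118 and -0.001) and OIP5-AS1 with total counts (0.0003) and over 0-6, 0-4 and 0-24 h (0.0077, 0.0254 and 0.0043). Single-time levels turned with total counts for NORAD at 2 h (-0.006) and OIP5-AS1 at 4 h (-0.0149).

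In shControl, slopes called over all transcripts fell to 27169 over 0-4 h and 22969 over 0-24 h. MALAT1 was 0.0384 with total counts and 0.0482 over 2-10 h, both uncalled, and -0.0127 over 0-24 h. NEAT1 was -0.0688 with total counts, -0.0533 over 0-24 h and -0.0179 over 2-10 h. KCNQ1OT1 was -0.0576 with total counts, -0.1087 over 0-6 h, -0.1828 over 0-4 h and, called, 0.0918 over 2-10 h. TUG1 lost its call with RLE factors and DESeq2 (-0.0279 each), no filter (-0.0349), 1 transcript per gene (-0.0318), 0-6 h (-0.0406) and 0-4 h (-0.0285). NORAD was 0.0016 with RLE and DESeq2, and called at -0.0812 with total counts and -0.0262 over 0-24 h.

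In shZNF598, slopes called fell to 26946 over 0-4 h and 20829 over 0-24 h. MALAT1 was 0.0683 with total counts, uncalled, and -0.0099 over 0-24 h. NEAT1 was -0.0383 with total counts and -0.0478 over 0-24 h. KCNQ1OT1 was -0.0427 with total counts, -0.0908 over 0-6 h, -0.1749 over 0-4 h and, called, 0.0947 over 2-10 h. TUG1 was called with total counts (-0.0738) and was 0.0042 over 0-6 h and 0.031 over 0-4 h. NORAD was 0.0027 with RLE and 0.0028 with DESeq2, and called at -0.0698 with total counts and -0.0271 over 0-24 h. OIP5-AS1 was -0.0959 over 0-4 h, uncalled. The median of its other transcripts was -0.0093 in shControl and -0.0225 in shZNF598, with a level of -0.1501.

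Leaving out 1 library at a time moved the level at 0 h between -0.3685 and 0.7862 for MALAT1, -0.5422 and 0.682 for NEAT1, -0.2311 and 0.4719 for KCNQ1OT1, -0.2306 and 0.6287 for TUG1 and -0.1738 and 0.0798 for OIP5-AS1, each end set by 1 of the shControl libraries of 0 h, with 49 to 1899 transcripts called. The level over 0 to 10 h ran from 0.1189 to 0.3499 for MALAT1, -0.0062 to 0.2386 for NEAT1, 0.062 to 0.2026 for KCNQ1OT1 and 0.0921 to 0.1474 for NORAD. The slope difference ran from -0.0047 to 0.0644 for MALAT1, -0.0044 to 0.0552 for NEAT1, -0.0402 to 0.04 for KCNQ1OT1, -0.0078 to 0.0099 for NORAD and -0.0191 to 0.0046 for OIP5-AS1, with 31 to 126 transcripts called. The shControl slope ran from -0.0303 to 0.0292 for NEAT1, -0.021 to 0.0592 for KCNQ1OT1 and -0.0617 to -0.0208 for TUG1, and the shZNF598 slope from -0.0072 to 0.0464 for KCNQ1OT1 and -0.0158 to 0.0005 for TUG1.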
